A study of Homo sapiens with 12 samples.

Results

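The receptors and ligands of the EGFR family were followed through FAT1 knockdown (KD) in oral squamous cell carcinoma (OSCC) cells. The 10 genes were taken by symbol from a count table of 19225 rows. They are 3 receptors (EGFR, ERBB2 and ERBB3) and 7 ligands (AREG, EREG, HBEGF, TGFA, BTC, EPGN and NRG1), and all 10 had enough counts to be tested, among 13887 genes. The established human OSCC lines HN6 and HN30 were each given siFAT1-1, siFAT1-2 or a scrambled control siRNA (NC) by lipofection, and poly(A) RNA was sequenced 24 h later. The 6 conditions had 2 repeats each, numbered in the labels by time, which gave 12 libraries, 4 of NC and 8 of KD. The paper describes the repeats as biological. The labels do not say whether repeats came from separate cultures, so the p-values measure only the spread between these libraries. Sample titles call the KD groups sh1 and sh2, while their descriptions name siRNAs. Each line is a single cell line, every group had been through transfection, and both siRNAs were set against the same NC libraries, so their comparisons with NC are not independent.

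EGFR family receptors are tyrosine kinases that pair with one another when a ligand binds the outer part of the protein. Their ligands are made as membrane-anchored precursors and are released by ADAM proteases, and activated receptors signal through the RAS to ERK and the PI3K to AKT routes. ERBB2 has no known ligand, ERBB3 has little kinase activity of its own and binds neuregulins such as NRG1, and squamous epithelia and the carcinomas that arise from them are known for high EGFR.

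The siRNAs lowered their target. FAT1, an atypical cadherin, had 56.8 and 66.7 CPM (counts scaled to library size) in the HN6 NC libraries and between 7.61 and 21.4 in the HN6 KD libraries. In HN30 the NC libraries had 13.6 and 14.7 CPM and the KD libraries between 4.86 and 10.8. KD and NC thus did not overlap in either line. Mean FAT1 was 17.1% of NC with siFAT1-1 and 28.0% with siFAT1-2 in HN6, and 39.3% and 65.4% in HN30. The weakest knockdown was that of siFAT1-2 in HN30. With edgeR, both siRNAs pooled did not pass adjustment in either line alone, where 0% of all genes did. The log2 fold change was -2.11 in HN6 (SE 0.40, adjusted p = 0.814) and -0.94 in HN30 (SE 0.35, adjusted p = 0.492). With edgeR's quasi-likelihood test over both lines FAT1 fell by 1.59 on the log2 scale (SE 0.31, adjusted p = 0.0404), a call that was lost when any library other than repeat 1 of siFAT1-2 in HN30 was left out (adjusted p up to 0.124). Against NC over both lines with edgeR, FAT1 also passed with each siRNA taken singly (adjusted p = 0.00656 for siFAT1-1 and 0.0236 for siFAT1-2). In a fit of the 6 conditions, added after the counts had been seen, siFAT1-1 in HN6 had an adjusted p of 0.0499. The others did not pass, at 0.0561 for siFAT1-2 in HN6, and 0.0946 for siFAT1-1 and 0.422 for siFAT1-2 in HN30. These single-siRNA calls were not followed with libraries left out. Total counts ran from 26430049 to 47639010 per library. The NC repeats of HN6 were the least alike of the 6 pairs (Pearson r of log2 CPM 0.942, across genes), and the siFAT1-1 repeats of HN30 the most (0.990). Of 10 squamous epithelial markers, 8 exceeded 1 CPM in every library, while KRT14, a basal keratin, had no counts in 5 of the 6 HN30 libraries and at most 2.42 CPM in HN6.

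To set the genes side by side, CPM were divided by the length of annotated exon (CPM per kb). In HN6, EGFR stood alone at the top with a median of 212 CPM per kb over 6 libraries (range 186 to 303), and the ranges of EGFR and the next gene, HBEGF (median 28.0), did not overlap. HBEGF, the heparin-binding ligand, was followed in HN6 by TGFA (25.6), ERBB2 (12.6), ERBB3 (8.23) and AREG (4.60), each with a range that overlapped that of its neighbour. A gap in range then separated AREG from EREG (0.983), NRG1 (0.883), EPGN (0.455) and BTC (0.316).

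In HN30 a ligand headed the order of medians over the 6 libraries, though not in the NC libraries. EREG, which encodes epiregulin, had a median of 58.2 CPM per kb (range 53.0 to 222) and EGFR 51.3 (range 41.8 to 74.4), with overlapping ranges. TGFA (29.3), HBEGF (21.2) and ERBB2 (14.8) came next with overlapping ranges. BTC (5.70) followed without overlap with ERBB2, then ERBB3 (4.57), AREG (3.46) and EPGN (1.68). The range of AREG reached 11.6 and so overlapped that of ERBB2, which began at 10.9. NRG1 was last at 0.0992 with no overlap. These positions depend on the libraries and the length used. In both HN30 NC libraries EGFR (68.2 and 74.4) stood above EREG (54.7 and 54.9), and in every HN30 KD library EREG stood above EGFR. With the length of a single reference transcript, EGFR (82.5) stood before EREG (72.04) and ERBB2 before HBEGF in HN30, ERBB3 stood before BTC, and NRG1 stood before EREG in HN6.

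**Figure D1:**
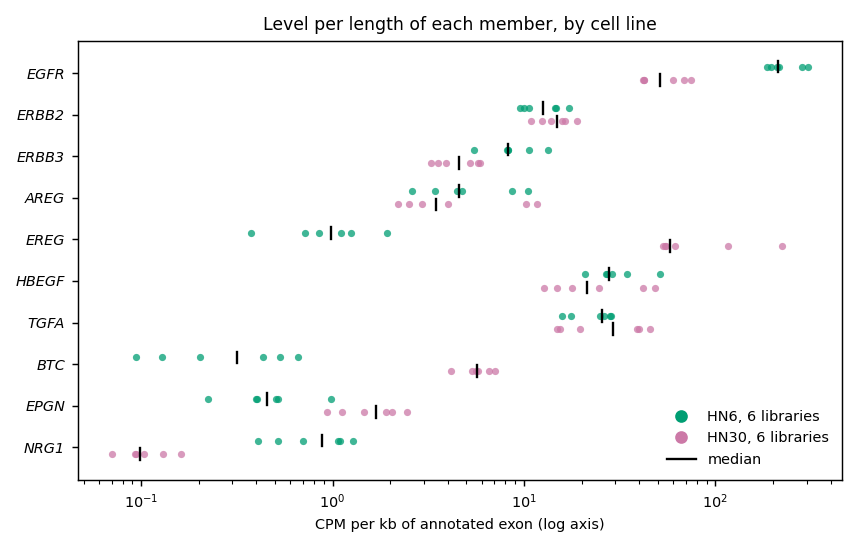
Level of each member in CPM per kb of annotated exon on a log axis, with 1 point per library and the median of 6 libraries as a black bar, for HN6 and HN30. EGFR lies between 186 and 303 in HN6, and EREG moves from 0.375 to 1.92 in HN6 up to 53.0 to 222 in HN30.

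The 2 lines were compared over all conditions with treatment as a term. With edgeR, 6 of the 10 members differed between HN30 and HN6 at an adjusted p under 0.05, as did 56.9% of all genes. The study itself used an unadjusted P of less than 0.05 with a log2 fold change beyond 1 in either direction. These thresholds were passed by 5 members and by 31.7% of all genes. EREG was higher in HN30 by 6.38 on the log2 scale (SE 0.31, adjusted p = 1.5e-08), BTC by 4.23 (SE 0.37, adjusted p = 2.08e-06) and EPGN by 1.72 (SE 0.34, adjusted p = 0.00106). BTC encodes betacellulin and EPGN epigen, both EGFR ligands.

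In the other direction, NRG1, the neuregulin that binds ERBB3, was lower in HN30 (log2 fold change -2.93, SE 0.31, adjusted p = 9.97e-06), as were EGFR (-2.11, SE 0.16, adjusted p = 6.54e-07) and ERBB3 (-0.99, SE 0.18, adjusted p = 6.97e-04). ERBB2, AREG, HBEGF and TGFA did not pass, with log2 differences between -0.37 and 0.21. With NC libraries only, ERBB3 and EPGN no longer passed (adjusted p = 0.229 and 0.108). Since the libraries are bulk RNA, fewer cells with a transcript and less of it per cell cannot be told apart.

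The 3 ligands that were higher in HN30 are neighbours of AREG on chromosome 4. In the GENCODE 44 annotation of GRCh38, EPGN (74308470 to 74316789, plus strand), EREG (74365145 to 74388749, plus), AREG (74445136 to 74455005, plus) and BTC (74744759 to 74794523, minus) lie within 486 kb. EPGN is 48.4 kb from EREG, EREG 56.4 kb from AREG and AREG 290 kb from BTC. AREG, which encodes amphiregulin, did not pass between the lines (log2 fold change -0.30, SE 0.36, adjusted p = 0.499). The other members lie elsewhere, EGFR on chromosome 7 (55019017 to 55211628, plus), ERBB2 on 17 (39687914 to 39730426, plus), ERBB3 on 12 (56076799 to 56103505, plus), HBEGF on 5 (140332843 to 140346603, minus) and TGFA on 2 (70447284 to 70554193, minus).

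The 90 bases before the start of each of these 4 neighbours are printed because these neighbours gave different calls, EREG, BTC and EPGN between the lines, and AREG and EREG for siFAT1-2 by the thresholds of the study. They come from RefSeq (GRCh38.p14), 5′ to 3′ along the gene, with the letters TATAAA and TGACGTCA in capitals, the latter being the cyclic AMP response element.
EPGN, chr4:74308380-74308469, plus strand: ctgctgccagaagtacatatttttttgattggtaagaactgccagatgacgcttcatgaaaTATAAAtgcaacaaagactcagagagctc
EREG, chr4:74365055-74365144, plus strand: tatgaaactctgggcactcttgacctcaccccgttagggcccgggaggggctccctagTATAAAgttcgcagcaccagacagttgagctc
AREG, chr4:74445046-74445135, plus strand: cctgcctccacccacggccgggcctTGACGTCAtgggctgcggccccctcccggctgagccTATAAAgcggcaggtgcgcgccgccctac
BTC, chr4:74794524-74794613, minus strand: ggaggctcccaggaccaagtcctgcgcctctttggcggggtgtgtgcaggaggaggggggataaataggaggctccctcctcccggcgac

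The TATAAA run ends 24 bases before the start in EPGN and AREG and 27 bases before it in EREG. Among 35116 RefSeq promoters of 300 bases, searched on both strands, 11.5% held TATAAA and 1.85% held TGACGTCA. The table held 10 promoters of 8 members, of which 4 held TATAAA (AREG, EGFR, EPGN and EREG) and 1, of AREG, held TGACGTCA. The AP-1 letters TGANTCA were found in 2 of the 10 (EGFR and ERBB2), against 7.71% of all promoters. A match is a description of the letters in the window.

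Pooling both siRNAs, no member passed. KD against NC over both lines called 0 of 10 members with the thresholds of the study, where 3.07% of all genes were called, and 0 with an adjusted p under 0.05, where 0.547% were. In edgeR 0 of 10 had an unadjusted P under 0.05, as 14.5% of all genes did, and DESeq2 and limma-voom also called 0 by both rules. The median log2 fold change of the 10 members was 0.15, beside 0.02 over all genes. No member had all KD libraries on the same side of NC in both lines, as 5.44% of all genes did. The values nearest the threshold were EGFR at -0.38 (SE 0.18, adjusted p = 0.362), EREG at 0.86 (SE 0.42, adjusted p = 0.367) and BTC at 0.79 (SE 0.39, adjusted p = 0.377).

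Within each line alone, 0 members were called by either rule in edgeR, DESeq2 or limma-voom. In HN6, 3.08% of genes passed the thresholds of the study and 0% an adjusted p under 0.05, and in HN30 4% and 0%. At an unadjusted P under 0.05 there were 0 members in HN6, beside 5.72% of genes, and 1 in HN30, beside 9.3%, which was EGFR (log2 fold change -0.62, SE 0.22, adjusted p = 0.473).

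The siRNAs differed from each other in several members. Between siFAT1-1 and siFAT1-2, 4 of 10 members had an adjusted p under 0.05, where 17.4% of all genes did, and 3 passed the thresholds of the study, where 12.4% did. TGFA, EREG and AREG were lower with siFAT1-1 than with siFAT1-2, and ERBB2 was higher. A related count, members with siFAT1-1 and siFAT1-2 libraries apart in the same direction in both lines, was also 4 of 10 (ERBB2, HBEGF, EREG and TGFA), beside 34.1% of all genes.

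**Figure D2:**
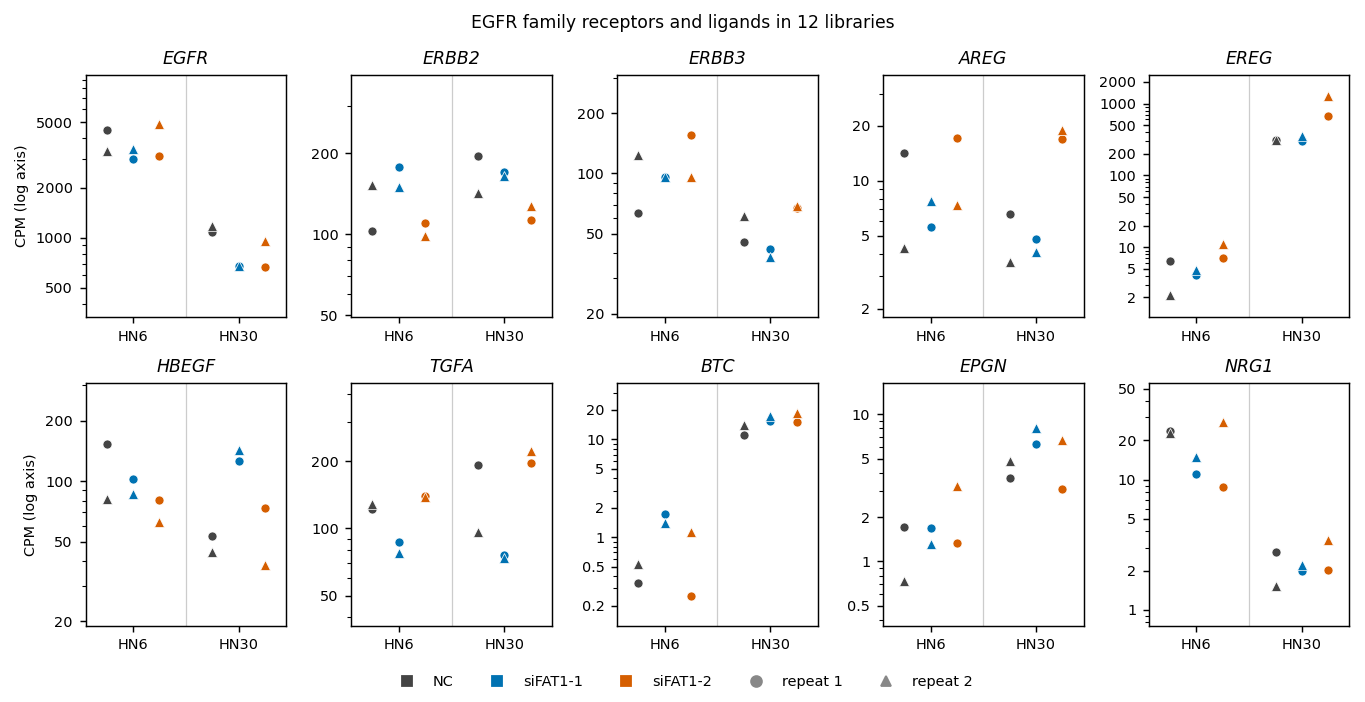
CPM on a log axis for each member in the 12 libraries, by cell line and treatment (colour) and repeat (shape). TGFA with siFAT1-1 lies between 73.3 and 87.0 CPM, under every other library, and EREG with siFAT1-2 in HN30 lies at 667 and 1267 CPM, above the NC libraries at 313 and 314.

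Among the receptors, EGFR had 4506 and 3351 CPM in HN6 with NC, 2973 and 3424 with siFAT1-1 and 3130 and 4837 with siFAT1-2. In HN30 it had 1087 and 1186 CPM with NC, 673 and 672 with siFAT1-1 and 667 and 961 with siFAT1-2. All KD libraries of HN30 were thus under NC, whereas in HN6 the groups overlapped. The share of all genes apart in this way within a single line was not counted, here or for the members below. The log2 fold change against NC over both lines was -0.53 for siFAT1-1 (SE 0.19, adjusted p = 0.155) and -0.24 for siFAT1-2 (SE 0.19, adjusted p = 0.436) with edgeR, and neither passed. An antisense gene, EGFR-AS1, overlaps EGFR, and it is not stated whether strand was used in counting.

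ERBB2, the partner of the other receptors, had 103 and 152 CPM in HN6 with NC, 177 and 149.9 with siFAT1-1 and 110.0 and 98.7 with siFAT1-2. In HN30 these values were 195 and 142 with NC, 169.7 and 164 with siFAT1-1 and 113 and 128 with siFAT1-2. In both lines the siFAT1-1 libraries lay above the siFAT1-2 libraries. ERBB2 was higher with siFAT1-1 than with siFAT1-2 by 0.56 on the log2 scale (SE 0.16, adjusted p = 0.0367), and against NC neither siRNA passed (siFAT1-1 0.17, adjusted p = 0.614, and siFAT1-2 -0.39, adjusted p = 0.139). The call was lost when any one of the 8 KD libraries was left out (adjusted p up to 0.114).

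ERBB3, the receptor of neuregulins, had 63.8 and 124 CPM in HN6 with NC, 95.8 and 96.5 with siFAT1-1 and 156 and 96.2 with siFAT1-2. The HN30 libraries held 45.7 and 61.4 with NC, 41.9 and 38.5 with siFAT1-1 and 67.0 and 69.1 with siFAT1-2. In HN30 the 3 treatments stood apart, with siFAT1-2 above and siFAT1-1 under NC, and in HN6 they overlapped. Over both lines siFAT1-1 against siFAT1-2 gave -0.57 (SE 0.22, adjusted p = 0.0968), which did not pass.

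**Figure D3:**
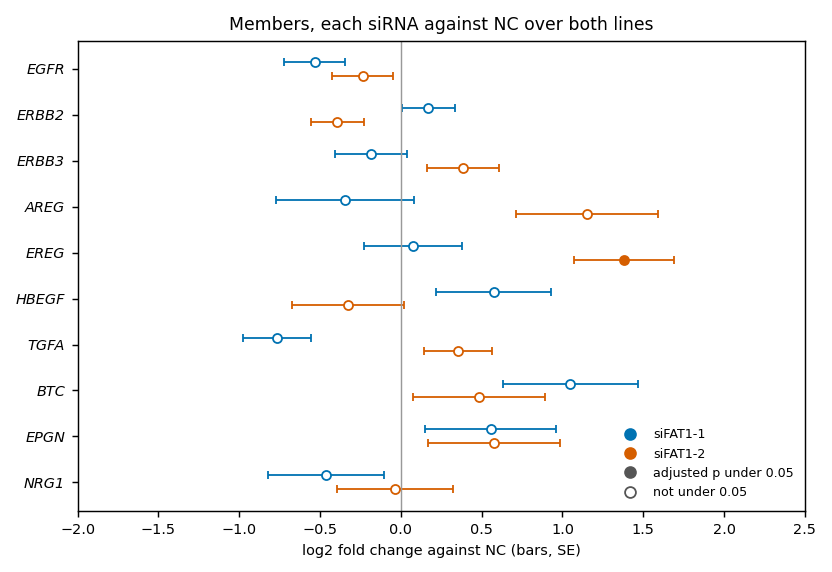
Log2 fold change of each member against NC over both lines, for siFAT1-1 and siFAT1-2, with bars of 1 SE and filled points where the adjusted p is under 0.05. EREG with siFAT1-2 (1.38) is the filled point, and AREG and TGFA lie under 0 with siFAT1-1 (-0.35 and -0.77) and over 0 with siFAT1-2 (1.15 and 0.35).

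Among the ligands, EREG had the smallest adjusted p of either siRNA against NC. It had 6.35 and 2.14 CPM in HN6 with NC, 4.12 and 4.87 with siFAT1-1 and 7.12 and 10.98 with siFAT1-2. In HN30 it had 313 and 314 CPM with NC, 303 and 351 with siFAT1-1 and 667 and 1267 with siFAT1-2. The siFAT1-2 libraries were the highest in both lines, and those with siFAT1-1 overlapped NC. With siFAT1-2 EREG rose by 1.38 on the log2 scale, or 2.602-fold (SE 0.31, adjusted p = 0.0166), and with siFAT1-1 it was at 0.08 (SE 0.30, adjusted p = 0.920).

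EREG was the 1 member of 10 with an adjusted p under 0.05 for siFAT1-2 against NC, where 11.8% of all genes had one, and without repeat 1 of NC in HN30 its adjusted p was 0.0558. EREG and AREG were the 2 members past the thresholds of the study, where 9.06% of genes were. EREG was lower with siFAT1-1 than with siFAT1-2 by -1.30 (SE 0.31, adjusted p = 0.0148). This call was lost without repeat 1 of siFAT1-1 in HN6 or either siFAT1-1 repeat of HN30 (adjusted p up to 0.0603).

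AREG, which lies next to EREG, had 14.2 and 4.28 CPM in HN6 with NC, 5.62 and 7.77 with siFAT1-1 and 17.1 and 7.34 with siFAT1-2. In the HN30 libraries there were 6.56 and 3.60 CPM with NC, 4.79 and 4.10 with siFAT1-1 and 16.9 and 19.1 with siFAT1-2. In HN30 the siFAT1-2 libraries were well above all others, and in HN6 the NC repeats spanned most of the range. AREG was at 1.15 with siFAT1-2 against NC (SE 0.44, adjusted p = 0.106), which became 1.65 (adjusted p = 0.0278) without repeat 1 of NC in HN6. Against siFAT1-2, siFAT1-1 gave -1.50 (SE 0.44, adjusted p = 0.0363), a call that was lost when any one of 6 KD libraries was left out, all except the second repeats in HN6 (adjusted p up to 0.112). Of 8 alternatives other than leaving out a library, the AREG call held in 4, beside 5 for EREG and ERBB2 and 7 for TGFA.

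TGFA, the transforming growth factor alpha gene, had 123 and 129 CPM in HN6 with NC, 87.0 and 77.9 with siFAT1-1 and 139.8 and 138 with siFAT1-2. In HN30 it had 191 and 96.3 CPM with NC, 75.7 and 73.3 with siFAT1-1 and 195 and 223 with siFAT1-2. The order siFAT1-1, NC, siFAT1-2 held in both lines with no overlap, though in HN30 narrowly between NC (191) and siFAT1-2 (195). Of all genes, 20.9% were apart from NC the same way in both lines with siFAT1-1, and 22.5% with siFAT1-2. In the directions of TGFA, 10.7% had siFAT1-1 under NC and 9.67% had siFAT1-2 above it. The share with both was not counted. TGFA was lower with siFAT1-1 than with siFAT1-2 by -1.12, or 0.460-fold (SE 0.21, adjusted p = 0.0058), and this passed with each of the 12 libraries left out in turn (adjusted p up to 0.0305). Against NC it was at -0.77 with siFAT1-1 (SE 0.21, adjusted p = 0.0707) and 0.35 with siFAT1-2 (SE 0.21, adjusted p = 0.288).

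HBEGF was high with siFAT1-1 in HN30. It had 154 and 81.1 CPM in HN6 with NC, 103 and 86.2 with siFAT1-1 and 80.6 and 62.4 with siFAT1-2. The HN30 libraries held 53.2 and 44.4 CPM with NC, 126 and 144 with siFAT1-1 and 73.8 and 38.1 with siFAT1-2. The siFAT1-1 libraries of HN30 were more than any other library of that line, and in HN6 they lay within the NC range. The difference between lines in the KD effect, an interaction term, was 1.47 (SE 0.63). HBEGF was the 1 member past the thresholds of the study, where 1.79% of genes were. It did not pass adjustment (edgeR, adjusted p = 1.00), as 0% of genes did, nor the same thresholds with limma-voom.

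BTC had 0.342 and 0.536 CPM in HN6 with NC, 1.74 and 1.40 with siFAT1-1 and 0.249 and 1.14 with siFAT1-2, which are between 9 and 77 counts. In HN30 it had 11.1 and 14.2 CPM with NC, 15.3 and 17.4 with siFAT1-1 and 14.9 and 18.7 with siFAT1-2. The siFAT1-1 libraries were above NC in both lines, as they were for 10.2% of all genes. BTC was the 1 member past the thresholds of the study for siFAT1-1 against NC (log2 fold change 1.05, SE 0.42, adjusted p = 0.199), where 5.58% of genes were, and limma-voom called 0. In that comparison edgeR gave 0 members an adjusted p under 0.05 and 3 an unadjusted P under 0.05 (EGFR, TGFA and BTC), where 3.25% and 19% of genes had one, while DESeq2 gave 1 and limma-voom 0.

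The remaining ligands gave no call with either siRNA. EPGN ran from 0.733 to 3.25 CPM in HN6 and from 3.09 to 8.11 in HN30, with log2 fold changes of 0.56 (SE 0.41) for siFAT1-1 and 0.58 (SE 0.41) for siFAT1-2 against NC. NRG1 ran from 8.75 to 27.5 CPM in HN6 and from 1.51 to 3.44 in HN30, with -0.46 (SE 0.36) and -0.03 (SE 0.36).

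A fit of the 6 conditions as separate groups, added after the counts had been seen, gave the siRNA effects within each line. In HN30, siFAT1-2 against NC was 1.63 for EREG (adjusted p = 0.127) and 1.83 for AREG (adjusted p = 0.166), and in HN6 it was 1.10 (adjusted p = 0.202) and 0.41 (adjusted p = 0.698). TGFA in HN30 was the 1 member with an adjusted p under 0.05, in siFAT1-1 against siFAT1-2 (-1.49, SE 0.28, adjusted p = 0.0175), where 8.65% of genes had one. In HN6 the same difference for TGFA was -0.75 (SE 0.28, adjusted p = 0.208), and the difference between lines did not pass (adjusted p = 0.814). HBEGF with siFAT1-1 against NC was 1.47 in HN30 (SE 0.37, adjusted p = 0.0817) and -0.31 in HN6 (SE 0.36, adjusted p = 0.920).

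The makeup of the ligand transcripts, as shares of the summed CPM per kb of the 7 ligands, followed these values and is given as a description. In HN6 HBEGF and TGFA together held most of it, with HBEGF between 36.0% and 59.4% and EREG between 0.648% and 3.32%. In HN30 EREG held 45.3% and 55.8% with NC, 43.7% and 45.2% with siFAT1-1, and 58.9% and 73.7% with siFAT1-2. HBEGF in HN30 held 14.7% and 15.1% with NC, 34.7% and 35.3% with siFAT1-1 and 12.5% and 4.24% with siFAT1-2. The sum of the 7 ligands in HN30 was 121 and 98.4 CPM per kb with NC, 121 and 136 with siFAT1-1 and 198 and 301 with siFAT1-2. EGFR made up 88.0% to 94.8% of the summed receptor CPM per kb in HN6 and 67.9% to 79.6% in HN30.

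Markers of the epithelium moved with the siRNAs as well. The summed CPM of the 10 squamous markers were 2445 and 3688 in HN6 with NC, 5134 and 6032 with siFAT1-1 and 1977 and 2832 with siFAT1-2. In HN30 the sums were 2006 and 2163 with NC, 3075 and 3221 with siFAT1-1 and 1242 and 1646 with siFAT1-2. Of these 10 markers, 6 had an adjusted p under 0.05 between the siRNAs, where 17.4% of all genes did, 5 of them higher with siFAT1-1. The sixth, DSG3, was lower with siFAT1-1 (log2 fold change -0.94). The markers did not all follow the sums. With siFAT1-2 against NC 4 of 10 had an adjusted p under 0.05 in edgeR, where 11.8% of all genes had one. DSG3 (1.72) and EPCAM (0.86) rose, and KRT6A (-1.82) and SFN (-1.35) fell. The part of these shifts in the results for the receptors and ligands was not tested. Leukocyte and endothelial markers were low, with sums of at most 15.1 CPM over 5 leukocyte genes, nearly all of it CD14, and at most 7.87 over 3 endothelial genes. The 7 fibroblast genes summed to 12.96 to 164 CPM, mostly COL1A1. Some of these markers also differed between the siRNAs with edgeR and are named after their values were seen. VWF (log2 fold change 2.00, adjusted p = 0.0095) and CDH5 (3.66, adjusted p = 0.0177) of the endothelial genes, CD14 (0.85, adjusted p = 0.0428) and PDGFRB of the fibroblast genes (1.10, adjusted p = 0.0388) were higher with siFAT1-1, and the fibroblast gene LUM was lower (-3.91, adjusted p = 0.0215). Their part in the results was not tested either.

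The genes with the most similar pattern were sought by the Pearson correlation of log2 CPM, centred within each line, over the 12 libraries and 13886 other genes. These r are descriptions, since all points share libraries, treatment and scaling. For EGFR they were FBXO5 (0.967), ELOVL6 (0.953) and VRK1 (0.952). For AREG they were AMN1 (0.916), TMEM198 (0.908) and TMEM2 (0.889), and for EREG ANKHD1 (0.961), ANAPC4 (0.941) and TMEM144 (0.933). Among the members themselves, AREG was most like EREG (0.786) and then TGFA (0.6995).

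Of 5 further genes of the family, ERBB4, the fourth receptor, had at most 13 counts and the neuregulin gene NRG3 had 0 in all libraries. EGF and NRG2 stayed under 1 CPM in every library. NRG4, another ERBB4 ligand, had 0 and 1 counts in HN6 with NC, 15 and 17 with siFAT1-1 and 31 and 29 with siFAT1-2. In the HN30 libraries there were 59 and 170 counts with NC, 150 and 113 with siFAT1-1 and 241 and 208 with siFAT1-2. NRG4 was the 1 gene of this list past the thresholds of the study for KD against NC (adjusted p = 0.211), where 3.07% of all genes were. EGF was at -0.85 (SE 0.49, adjusted p = 0.445) and NRG2 at -1.78 (SE 1.03, adjusted p = 0.449). NRG2 had 20 and 1 counts in HN6 with NC, 0 and 0 with siFAT1-1 and 0 and 1 with siFAT1-2. Its HN30 counts were 18 and 4 with NC, 10 and 15 with siFAT1-1 and 12 and 10 with siFAT1-2.

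Ligand shedding was represented by 10 genes, the ADAM proteases with their partners and an inhibitor. KD against NC called 0 of 10 by either rule, beside 3.07% of all genes by the thresholds of the study and 0.547% by adjusted p. The 3 with the smallest P were ADAM15 (0.48, SE 0.25, adjusted p = 0.395), FRMD8 (-0.37, SE 0.19, adjusted p = 0.396) and ADAM10 (0.39, SE 0.33, adjusted p = 0.618). With siFAT1-2 ADAM12 fell by 2.31 on the log2 scale (SE 0.35, adjusted p = 0.0035), and it is named, like the other genes of single siRNAs that follow, after its value was seen. ADAM17, the main sheddase of AREG, EREG and TGFA precursors, was at 0.16 (SE 0.20) with siFAT1-1 and 0.12 (SE 0.20) with siFAT1-2, and neither passed.

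Of 26 adaptors and kinases, KD against NC called 0 by either rule, beside 3.07% and 0.547% of all genes. An unadjusted P under 0.05 was found for 5 of the 26, beside 14.5% of all genes. The 3 with the smallest P were ARAF, a RAF kinase (-0.71, SE 0.15, adjusted p = 0.0635), PTPN11, a phosphatase that aids RAS activation (0.69, SE 0.20, adjusted p = 0.151), and NRAS (0.63, SE 0.21, adjusted p = 0.196). With siFAT1-2 3 of 26 had an adjusted p under 0.05, where 11.8% of all genes had one. These were ARAF (-0.83, adjusted p = 0.0102) and AKT2 (-1.23, adjusted p = 0.00299), which fell, and NRAS (0.82, adjusted p = 0.0237), which rose.

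With siFAT1-1 GRB2, the adaptor that links receptors to SOS, fell. It had 266 and 316 CPM in HN6 with NC, 159 and 136 with siFAT1-1 and 351 and 232 with siFAT1-2. In HN30 these values were 198 and 162 with NC, 82.8 and 90.4 with siFAT1-1 and 268 and 181 with siFAT1-2. The siFAT1-1 libraries lay under all others in both lines, with a log2 fold change against NC of -1.02 (SE 0.18, adjusted p = 0.0116).

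Of 19 negative regulators, 0 had an adjusted p under 0.05 in KD against NC, beside 0.547% of all genes. The thresholds of the study were passed by 1, beside 3.07% of all genes. It was LRIG1, a membrane protein that promotes receptor degradation (-1.03, SE 0.22, adjusted p = 0.0635). CBL, a ubiquitin ligase of EGFR, was at 0.54 (SE 0.23, adjusted p = 0.311) and DUSP4, an ERK phosphatase, at -0.34 (SE 0.19, adjusted p = 0.443). With siFAT1-2 6 of 19 had an adjusted p under 0.05, beside 11.8% of all genes. LRIG1 (-1.36, adjusted p = 0.00319), SPRY4 (-1.46, adjusted p = 0.0313), PTPRJ (-1.27, adjusted p = 0.0162) and PTPN1 (-0.88, adjusted p = 0.00647) fell, and CBL (0.79, adjusted p = 0.0327) and RNF41 (0.72, adjusted p = 0.0323) rose. With siFAT1-1 0 of 19 had one, beside 3.25% of all genes, and 3 had an unadjusted P under 0.05, beside 19%.

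ERK output was represented by 14 genes commonly read as its targets, of which SPRY2, SPRY4, DUSP4 and DUSP6 are also among the negative regulators. In KD against NC 12 of 14 log2 fold changes were negative with a median of -0.46, beside 0.02 over all genes, yet 0 had an adjusted p under 0.05 and 3 had an unadjusted P under 0.05, beside 0.547% and 14.5% of all genes. These were FOSL1 (-0.94, SE 0.25, adjusted p = 0.123), ETV4 (-0.61, SE 0.17, adjusted p = 0.142) and ETV5 (-0.75, SE 0.23, adjusted p = 0.171), all transcription factor genes. In HN6 alone 13 of 14 were negative with a median of -0.72, and in HN30 alone 9 of 14 with a median of -0.08, beside 0.03 over all genes in each. In each line, and for the interaction of line and KD, 0 of 14 had an adjusted p under 0.05, as 0% of all genes did. By the thresholds of the study the lines went opposite ways. In HN6 2 of 14 were called lower and 0 higher, beside 3.08% of all genes in either direction. In HN30 2 were called higher and 0 lower, beside 4%. The interaction called 2, both with the higher KD effect in HN30, beside 1.79%. With siFAT1-2 5 of 14 fell with an adjusted p under 0.05, where 11.8% of all genes had one in either direction. They were ETV5 (-1.24), CCND1 (-1.40), FOSL1 (-1.27), EPHA2 (-0.85) and SPRY4 (-1.46). With siFAT1-1 0 of 14 had an adjusted p under 0.05, beside 3.25% of all genes, 5 were lower with an unadjusted P under 0.05, beside 19% in either direction, and the median was -0.37.

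**Figure D4:**
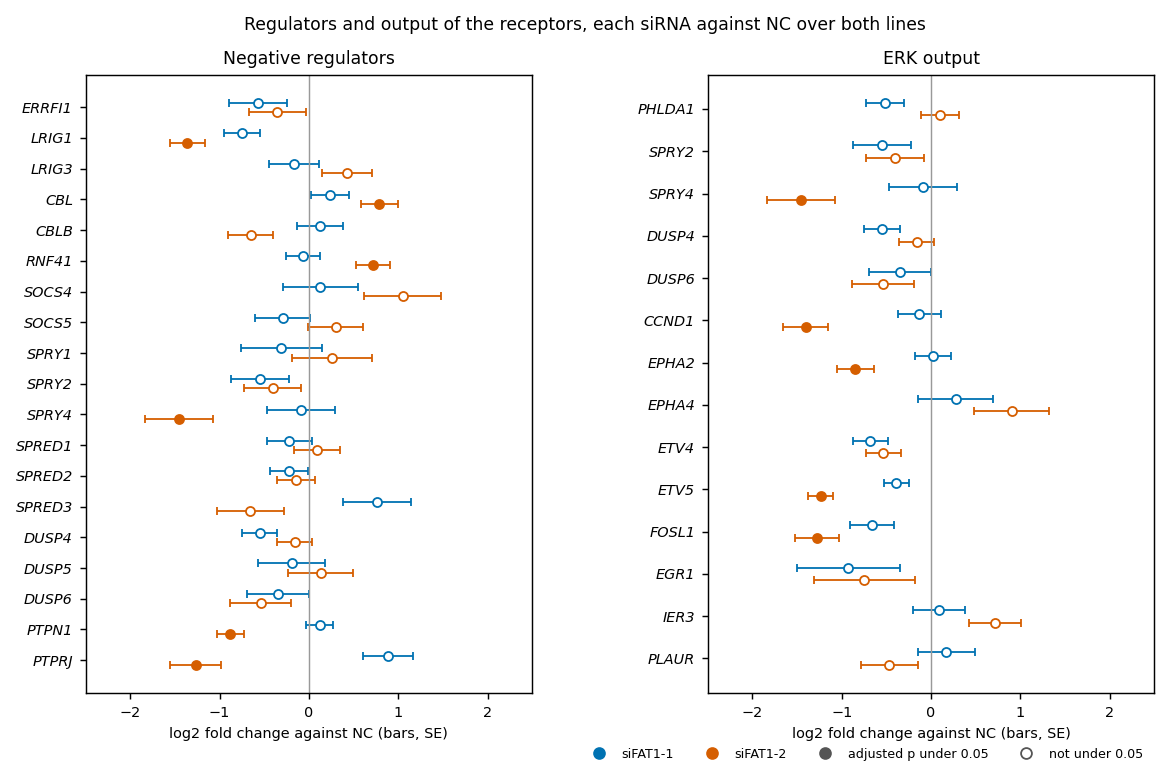
Log2 fold change against NC over both lines for 19 negative regulators and 14 genes of ERK output, for siFAT1-1 and siFAT1-2, with bars of 1 SE and filled points where the adjusted p is under 0.05. Every filled point is of siFAT1-2, among them LRIG1 (-1.36), CCND1 (-1.40), FOSL1 (-1.27) and ETV5 (-1.24).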

How the data were processed

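Poly(A) RNA of HN6 and HN30 was sequenced as paired 150-bp reads in 12 libraries. The authors mapped the reads to hg38 and deposited whole-number counts per gene, not normalized. HISAT2 and featureCounts are named in the submitters' processing notes, and the annotation and use of strand are not given in the sources used here. The number of columns left out was 0.

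Counts were tested with edgeR 4.0.16 (TMM, glmQLFit and glmQLFTest, genes kept by filterByExpr at 10 counts, cell line as a term) over 13887 genes, and over 13626 in HN6 and 13602 in HN30 alone, with Benjamini-Hochberg adjustment. CPM are scaled by TMM, and log2 CPM used a prior count of 2. Alternatives used DESeq2 1.42.0 and limma 3.58.1 in R 4.3.3, and summaries Python 3.11.15. Exon lengths are from GENCODE 44. The members and lists were chosen with earlier results of these data known. Named genes were FAT1, the members, the 3 genes of each list with the smallest P in KD against NC, and the 3 most like EGFR, AREG and EREG. The rest of the genes in the text were picked with their values in view. Depth was 26430049 to 47639010 counts per library, and the spread between 2 repeats limits precision more than counting error.

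The fit of siFAT1-1 against siFAT1-2 was tested on simulated data. A result for 1 gene of the pathway lists is not reported here.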

Additional observations from a re-analysis of the deposited data

How the results depend on the processing

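Alternatives were limma-voom, the DESeq2 Wald test, edgeR with the size factors of DESeq2, no filter on low counts, a replicate block, no cell line term, NC libraries only, each library left out and, chosen after seeing the data, a fit of the 6 conditions. Log2 fold changes were followed for FAT1 and all members in KD against NC. In the other comparisons only members called by either rule were followed. A member not called there could gain a call without entering the count. Of the log2 fold changes followed, 410 kept direction and side of the threshold under an alternative, 47 kept direction and lost the call, 3 gained it and 5 reversed. The reversals were all in KD against NC with 1 library left out, where ERBB2 ran from -0.22 to 0.048, ERBB3 from -0.056 to 0.28, HBEGF from -0.069 to 0.57 and TGFA from -0.28 to 0.071. ERBB3 reversed without repeat 1 of NC in HN6, ERBB2 and TGFA without repeat 1 of NC in HN30, and HBEGF without either NC repeat of HN30. The cause was not tested. The other genes named were not run under the alternatives.

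Repeats of one line share only a number. Across genes, the departures of libraries with one number from the mean of their own group correlated at 0.0778, 0.219 and 0.242 in HN6 and -0.0337, 0.405 and -0.0216 in HN30. With the replicate block, the interaction called 0 members in place of 1 and FAT1 in KD against NC had an adjusted p of 0.0757, and no other call of a member in the report changed. For siFAT1-1 against NC, 0 members were called with limma-voom and with no cell line term, and the DESeq2 Wald test gave 1 an adjusted p under 0.05. For siFAT1-2 against NC, the DESeq2 Wald test gave 2 an adjusted p under 0.05, and the fit with no cell line term called 1 and gave 0. Between the siRNAs, 1 had an adjusted p under 0.05 with no cell line term. The interaction called 0 with limma-voom and 0 for siFAT1-2 alone in the fit of 6 conditions. That fit within HN6 called 1 for siFAT1-2 (0 adjusted) and 0 between the siRNAs (0 adjusted), and within HN30 it gave an adjusted p under 0.05 to 0 for siFAT1-2 and to 1 between the siRNAs.

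With each library left out, members called ran from 0 to 1 for KD against NC, for siFAT1-1 against NC, within HN6, within HN30 and for the interaction. They ran from 1 to 2 for siFAT1-2, from 3 to 4 between the siRNAs and from 5 to 6 between lines. Members with an adjusted p under 0.05 ran from 0 to 1 for siFAT1-1, from 0 to 2 for siFAT1-2 and from 1 to 6 between the siRNAs. The fall to 0 for siFAT1-2 came without repeat 1 of NC in HN30, and that to 1 between the siRNAs without repeat 1 of siFAT1-1 in HN6 or either siFAT1-1 repeat of HN30. With 2 repeats per condition the SE of a member's log2 fold change limits what could be seen, at 0.16 for ERBB2 and 0.44 for AREG between the siRNAs.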
